A study of Mus musculus with 16 samples.

Results

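The genes described here are the epidermal growth factor (EGF) family ligands Nrg1, Nrg4, Hbegf, Tgfa, Btc and Egf and the 4 ErbB receptors Egfr, Erbb2, Erbb3 and Erbb4, measured in mouse heart ventricles. They were chosen by name, and their Ensembl gene identifiers picked out 10 of the 22372 protein-coding genes in the deposited table. All 10 passed the filter on low values, which kept the 13331 genes that reached 10 normalized counts in 4 or more libraries. A normalized count is the number of reads counted in a gene divided by a size factor of its library. It can be compared between libraries for 1 gene, and between genes only after division by gene length.

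RNA was sequenced from ventricle pieces of C57BL/6J mice that were 10 to 12 weeks old when the experiment began. Transverse aortic constriction (TAC) ties a suture around the aorta so that the left ventricle pumps against a higher pressure, and sham mice had the surgery without the suture. THZ1, a covalent inhibitor of the transcription kinases CDK7, CDK12 and CDK13, was injected into the abdomen at 10 mg/kg b.i.d. from day 1 to day 60 after surgery. The groups were sham with vehicle (Sham-Veh), sham with THZ1 (Sham-THZ1), TAC with vehicle (TAC-Veh) and TAC with THZ1 (TAC-THZ1), with 4 libraries each. The labels name no engineered allele, and each library was a separate sample. Recovered reads came to 21.4 to 35.8 M (mega) per library, and 33.2% to 44.7% of them were mitochondrial.

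The members lie on 9 chromosomes of the NCBIM37 (mm9) genome. Nrg1 (ENSMUSG00000062991) was annotated at chr8:32928500-33119581, Nrg4 (ENSMUSG00000032311) at chr9:55068029-55174651 and Hbegf (ENSMUSG00000024486) at chr18:36664583-36675459. Tgfa (ENSMUSG00000029999) was at chr6:86145420-86225151, Btc (ENSMUSG00000082361) at chr5:91786287-91831939 and Egf (ENSMUSG00000028017) at chr3:129380493-129458240. Among the receptors, Egfr (ENSMUSG00000020122) was at chr11:16652206-16818161 and Erbb2 (ENSMUSG00000062312) at chr11:98273784-98299030. Erbb3 (ENSMUSG00000018166) was at chr10:128004579-128026708 and Erbb4 (ENSMUSG00000062209) at chr1:68078760-69154633. Erbb4 spanned 1075.9 kb, of which 12.36 kb were exon, whereas Hbegf spanned 10.9 kb with 2.37 kb of exon. Reads were counted over all annotated exons of a gene. Exons of Nrg1, Nrg4 and Erbb2 overlapped a gene on the other strand, and the counting was stranded.

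EGF-family ligands are made as membrane-bound precursors that proteases of the ADAM family cut free. A released ligand binds the outer part of an ErbB receptor, the receptors pair up, and their kinase domains start signalling through the ERK and AKT pathways. Erbb2 has no known ligand and Erbb3 has a weak kinase, so both act mainly in pairs with another receptor. In the heart, neuregulin-1 from endothelial cells acts on the Erbb2 and Erbb4 receptors of cardiomyocytes, a pathway needed for the heart to form and for adult heart muscle to stay healthy.

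RefSeq promoter sequences were available for 7 of the 10 members. Those of Erbb4 and Egf are shown because both genes fell with TAC by a similar factor while their promoters differ in the number of CG dinucleotides. Each line gives the 250 bases before the gene's start, 5′ to 3′ on the gene's own strand, in the GRCm38.p6 build. The Erbb4 stretch is chr1:69108060-69108309 on the minus strand, and its capitals mark CG dinucleotides. The Egf stretch is chr3:129755323-129755572 on the minus strand, and its capitals mark the hexamer TTTAAA, a form of TATA-box core.
Erbb4: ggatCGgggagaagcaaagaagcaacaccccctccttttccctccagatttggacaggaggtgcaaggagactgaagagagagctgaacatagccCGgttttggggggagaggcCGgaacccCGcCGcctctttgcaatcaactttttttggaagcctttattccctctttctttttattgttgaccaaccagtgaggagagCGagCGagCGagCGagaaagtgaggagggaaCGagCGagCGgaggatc
Egf: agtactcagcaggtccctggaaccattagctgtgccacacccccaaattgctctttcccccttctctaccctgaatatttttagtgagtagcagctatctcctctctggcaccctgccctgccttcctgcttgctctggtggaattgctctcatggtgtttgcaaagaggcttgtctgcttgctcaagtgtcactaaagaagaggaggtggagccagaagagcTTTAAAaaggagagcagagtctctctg
The Erbb4 stretch held 12 CG dinucleotides and no TTTAAA, and the Egf stretch held no CG and 1 TTTAAA that began 27 bases before the start. Both motifs read the same on either strand. Among 32851 mouse promoters of this length in the table, the median number of CG was 6, 7.87% held none, and 12.1% held TTTAAA.

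Levels were first compared between the members, as the normalized count per kilobase of exon. In Sham-Veh, Hbegf stood highest at 139 ± 17.2 (SD, n = 4), followed by Erbb3 at 86.1 ± 5.07, and the ranges of these genes did not overlap each other or the next. Egf at 51.5 ± 11.4 and Erbb2 at 43.2 ± 2.12 per kb overlapped in range. Erbb4 at 19.5 ± 3.24, Egfr at 18.3 ± 0.836 and Btc at 17.3 ± 2.20 per kb formed the next step, again with overlapping ranges. Nrg4 at 4.84 ± 0.707, Nrg1 at 4.51 ± 0.970 and Tgfa at 3.98 ± 1.28 per kb were lowest and overlapped. The scarce members thus rest on few reads: between 6 and 53 reads per library for Nrg1. In TAC-Veh, Hbegf reached 599.9 ± 179.5 per kb, and Erbb4 at 9.97 ± 0.525 per kb had moved to seventh place, within the range of Nrg1 at 8.89 ± 3.40.

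**Figure D1:**
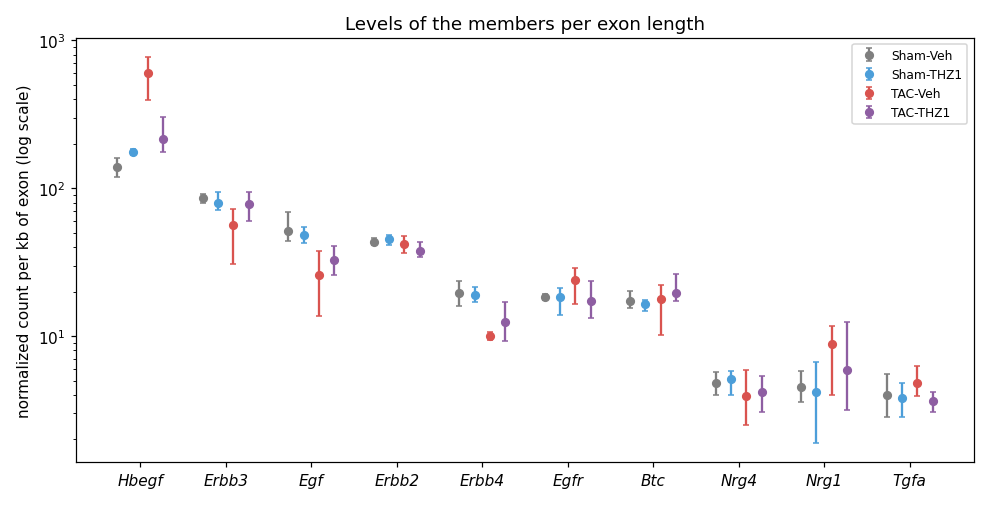
Normalized count per kilobase of exon (log axis) for the 10 members in each group, with points for group means and bars from the lowest to the highest of 4 libraries. Hbegf is highest in every group (139 per kb in Sham-Veh and 599.9 per kb in TAC-Veh), and Nrg1, Nrg4 and Tgfa lie lowest in both sham groups.

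TAC-Veh was set against Sham-Veh to see how these genes changed under pressure overload without the drug. Hbegf rose about 4-fold, and Egf, Erbb3 and Erbb4 fell to between 0.478 and 0.625 times their sham level. Thus 4 of the 10 members were called at an adjusted p under 0.05 in limma, against 45% of all 13331 genes. By direction, 1 was higher (21.4% of all genes) and 3 were lower (23.6%). Hbegf and Egf also moved by 1 or more on the log2 scale in either direction, 2 members against 8.01% of all genes. For genes that rose by at least 1, the criterion in the study's methods, the count was 1 member, Hbegf, against 4.64% of all genes. The median log2 fold change of the members was -0.04, beside 0 for all genes. The same 4 members were those whose TAC-Veh and Sham-Veh libraries did not overlap, a pattern that 37.3% of all genes showed.

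Hbegf encodes heparin-binding EGF-like growth factor, a ligand of Egfr and Erbb4. Its normalized counts were 344, 281, 321 and 378 in Sham-Veh and 1826, 1729.7, 1207 and 932 in TAC-Veh. Every TAC-Veh library lay far above every sham library, and the spread within TAC-Veh was wide. The log2 fold change was 2.06 (SE 0.19, 95% interval 1.66 to 2.46, limma adjusted p = 8.5e-07), a 4.16-fold rise. Because the samples are pieces of whole tissue, more RNA per cell and more cells of an expressing type cannot be told apart, here or for any gene below. Hbegf made up 62.9% ± 4.06 (SD, n = 4) of the summed per-kilobase level of the 6 ligands in Sham-Veh and 89.8% ± 5.07 in TAC-Veh.

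Egf encodes the founding ligand of the family, which binds Egfr. Sham-Veh libraries had normalized counts of 328, 211, 218 and 229, and TAC-Veh libraries had 65.8, 95.8, 157 and 179. All TAC-Veh values were below all Sham-Veh values. Egf fell by 1.06 on the log2 scale (SE 0.25, limma adjusted p = 0.00241). Its share of the summed per-kilobase level of the 6 ligands was 23.1% ± 3.25 in Sham-Veh and 4.46% ± 2.88 in TAC-Veh. The rise of Hbegf lowers this share too: Egf itself was at 51.5 per kb in Sham-Veh and 26.0 in TAC-Veh.

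The other 4 ligands were not called. Nrg1, the neuregulin of cardiac endothelium, had normalized counts of 12.7, 15.2, 18.6 and 11.5 in Sham-Veh and 30.6, 37.9, 12.9 and 33.2 in TAC-Veh. In 3 of 4 TAC-Veh libraries it was above every sham library, and replicate 3 lay within the Sham-Veh range. Its log2 fold change was 0.85 (SE 0.43, 95% interval -0.05 to 1.76, limma adjusted p = 0.113). Leaving out single libraries gave 0.69 to 1.19 (adjusted p up to 0.253). Among them it was called only without TAC-Veh replicate 3, its lowest TAC-Veh library (1.19, adjusted p = 0.031). Nrg4, a neuregulin that binds Erbb4, had a log2 fold change of -0.33 (interval -0.84 to 0.18), and Tgfa, a ligand of Egfr, one of 0.29 (interval -0.24 to 0.82). Btc, or betacellulin, a ligand of Egfr and Erbb4, had a log2 fold change of -0.02 (interval -0.46 to 0.43), and its mean normalized counts were 48.4 ± 6.15 in Sham-Veh and 49.6 ± 14.9 in TAC-Veh.

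**Figure D2:**
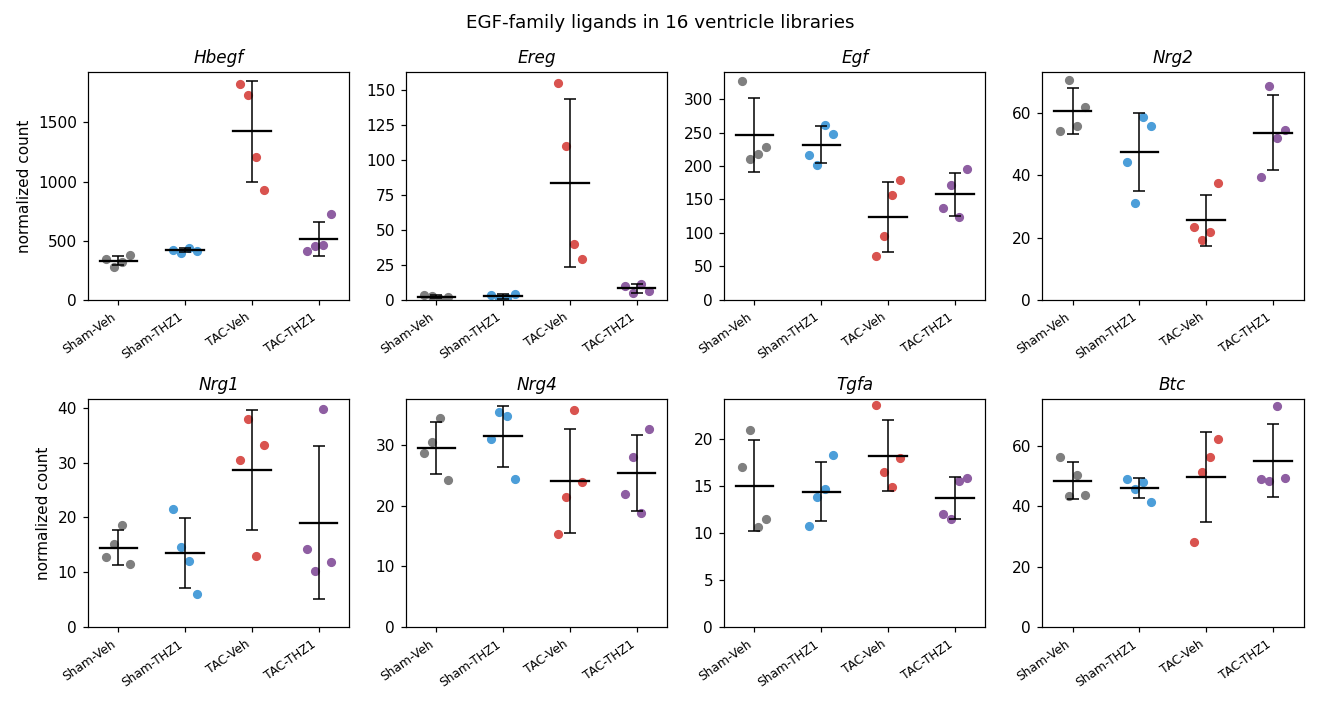
Normalized counts of the 6 ligand members and of Ereg and Nrg2 in each of 16 libraries (points), with group means and SD (n = 4). Hbegf and Ereg are highest in TAC-Veh (means 1424 and 83.5), and Egf and Nrg2 are lowest in TAC-Veh (means 124 and 25.5).

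Among the receptors, Erbb4, the neuregulin receptor with its own active kinase, was lower in every TAC-Veh library than in any Sham-Veh library. Sham-Veh libraries had normalized counts of 221, 289.6, 256 and 199, and TAC-Veh libraries had 132, 122, 116 and 123. The groups were separated by a wide gap, and the TAC-Veh libraries had an SD of 6.48. Erbb4 fell by 0.95 on the log2 scale (SE 0.16, limma adjusted p = 0.000176).

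Erbb3, the receptor with the weak kinase, had normalized counts of 479, 516, 523 and 554 in Sham-Veh and 183, 357, 438 and 379 in TAC-Veh. TAC-Veh replicate 1 stood well below the other libraries of its group, and all 4 were below the Sham-Veh libraries. Erbb3 fell by 0.68 on the log2 scale (SE 0.20, limma adjusted p = 0.0131), and without TAC-Veh replicate 1 it fell by 0.41 and was still called. Markers of Schwann cells, the glia of peripheral nerves, which are known to express Erbb3, were lower in TAC-Veh too. Of 8 such markers 6 were tested, and 5 fell with TAC (median log2 fold change -1.43), among them Sox10 and Mbp. Their summed normalized count was 453 to 513 in Sham-Veh and 187 to 320 in TAC-Veh, with the lowest sum in replicate 1, the library lowest for Erbb3. The myelin gene Pmp2 on the list had means under 10 normalized counts in every group. In Sham-THZ1 the marker sum was 425 to 553 and Erbb3 was 431 to 565. In TAC-THZ1 the marker sum was 276 to 402, below every sham library, while Erbb3 at 359 to 570.3 overlapped the sham libraries. The part of these cells in the Erbb3 difference was not tested.

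**Figure D3:**
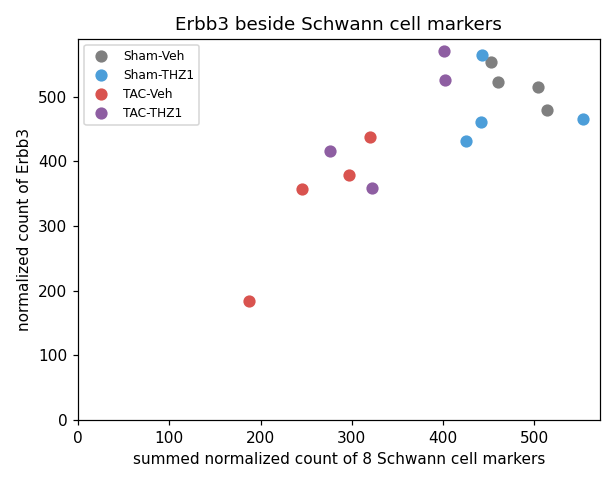
Normalized count of Erbb3 against the summed normalized count of 8 Schwann cell markers in each of 16 libraries, coloured by group. TAC-Veh replicate 1 is lowest on both axes (183 for Erbb3 and 187 for the markers), and the sham libraries lie at the upper right. The TAC-THZ1 libraries lie left of all sham libraries (276 to 402 for the markers), with Erbb3 counts of 359 to 570.3 that overlap theirs.

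Erbb2, the shared partner of the other receptors, had a normalized count of 225 ± 11 in Sham-Veh and 218 ± 28.8 in TAC-Veh. Its log2 fold change was -0.06 with a 95% interval of -0.27 to 0.16. Egfr, the EGF receptor, had normalized counts of 215, 201, 217 and 199 in Sham-Veh and 329, 297, 186 and 278 in TAC-Veh. In 3 TAC-Veh libraries it was above all Sham-Veh libraries, and in replicate 3 it was below them. The log2 fold change of Egfr was 0.36 (interval -0.02 to 0.74, limma adjusted p = 0.114). Leaving out single libraries gave 0.26 to 0.53 (adjusted p up to 0.274). Among them it was called only without TAC-Veh replicate 3, its lowest TAC-Veh library (0.53, adjusted p = 0.015). Without that library 6 members were called with TAC, Nrg1 and Egfr in addition to the 4 above, against 45.1% of all genes. As a share of the summed per-kilobase level of the 4 receptors, Erbb4 made up 11.7% ± 1.81 in Sham-Veh and 7.68% ± 1.48 in TAC-Veh, and Egfr 11% ± 0.585 and 18.7% ± 6.19. The fall of Erbb3 and Erbb4 raises the Egfr share too, and Egfr itself was not called.

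**Figure D4:**
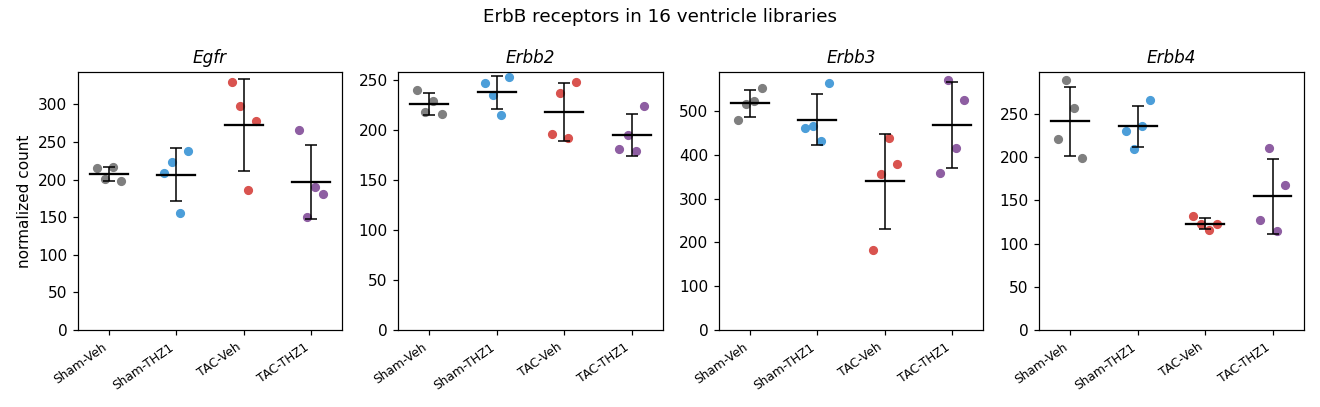
Normalized counts of the 4 ErbB receptors in each of 16 libraries (points), with group means and SD (n = 4). Erbb4 falls from a mean of 241 in Sham-Veh to 123 in TAC-Veh, and Erbb2 has means between 194 and 237 in all groups.

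TAC-THZ1 was then set against TAC-Veh, for the drug under pressure overload. This comparison shares the TAC-Veh libraries with the comparison above, so the fold changes of both are not independent. Hbegf fell, and it was the only member called of 10, against 29.4% of all genes (14.2% lower and 15.1% higher). It also met the study's criterion for lower genes in this comparison, a log2 fold change of -0.89 or less, as did 3.62% of all genes. It was also the only member whose groups did not overlap, against 20% of all genes. The median log2 fold change of the members was -0.03, beside 0.01 for all genes.

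Hbegf had normalized counts of 416, 451, 466 and 723 in TAC-THZ1, all below the lowest TAC-Veh library at 932 and the first 3 well apart from replicate 4. The log2 fold change was -1.45 (SE 0.19, 95% interval -1.85 to -1.05, limma adjusted p = 0.000101), a level 0.366 times that of TAC-Veh. The share of Hbegf in the summed per-kilobase level of the 6 ligands was 76.1% ± 3.35 in TAC-THZ1, between those of Sham-Veh and TAC-Veh.

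No other ligand member was called. Egf had normalized counts of 138, 172, 124 and 196 in TAC-THZ1, which overlapped TAC-Veh, and its log2 fold change was 0.42 (interval -0.10 to 0.95, limma adjusted p = 0.212). Without TAC-Veh replicate 1, the lowest library for Egf, it was 0.16. Nrg1 had 14.2, 10.2, 39.9 and 11.9, so that 3 libraries lay within or below the sham range and replicate 3 was the highest of all 16 libraries. Its log2 fold change was -0.68 (interval -1.58 to 0.23). Leaving out single libraries gave -1.09 to -0.47 (limma adjusted p up to 0.491). Among them it was called only without TAC-THZ1 replicate 3, its highest library (-1.09, adjusted p = 0.0472). The intervals for Nrg4 (-0.41 to 0.61), Tgfa (-0.91 to 0.15) and Btc (-0.26 to 0.63) all held 0.

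The receptors gave smaller differences than Hbegf, and none was called. Erbb3 had normalized counts of 359, 570.3, 417 and 526 in TAC-THZ1 and a log2 fold change of 0.51 (interval 0.08 to 0.94, limma adjusted p = 0.0707), which was 0.24 without TAC-Veh replicate 1. Egfr had 265, 150.2, 190.4 and 181 and a log2 fold change of -0.47 (interval -0.85 to -0.09, adjusted p = 0.0598). Both intervals left out 0 but neither gene passed the adjusted threshold. Erbb4 had 128, 210.1, 114 and 167, with replicates 1 and 3 in or just below the TAC-Veh range and replicates 2 and 4 above it. Its log2 fold change was 0.29 (interval -0.05 to 0.63, adjusted p = 0.186), or 0.13 without TAC-THZ1 replicate 2, and that of Erbb2 was -0.16 (interval -0.37 to 0.05).

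TAC-THZ1 replicates 1 and 3 also stood apart in blood cell genes. The summed normalized count of 9 neutrophil markers was 8122 and 3485 in those libraries, 993 and 221 in replicates 2 and 4, and 127 to 295 in TAC-Veh. Replicates 1 and 3 had the lowest Erbb3 and Erbb4 counts of their group and the lower Schwann marker sums, 322 and 276 against 401 and 402. The part of these cells in the receptor values was not tested. Without both libraries, 4 members were called rather than 1, against 24.5% of all genes. They were Hbegf, Erbb4 (log2 fold change 0.60, limma adjusted p = 0.00992), Erbb3 (0.76, adjusted p = 0.032) and Egfr (-0.69, adjusted p = 0.021). This pair was left out after seeing the data. It held the lowest Erbb3 and Erbb4 counts and the highest Egfr counts of the group. The receptor calls thus follow in part from the choice and are no separate evidence. Leaving out single libraries gave 3 called members without TAC-Veh replicate 3 (34.3% of all genes) or without TAC-THZ1 replicate 1 (25.5%). It gave 2 without TAC-THZ1 replicate 3 or Sham-THZ1 replicate 3, which enters through the shared estimate of the spread.

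**Figure D5:**
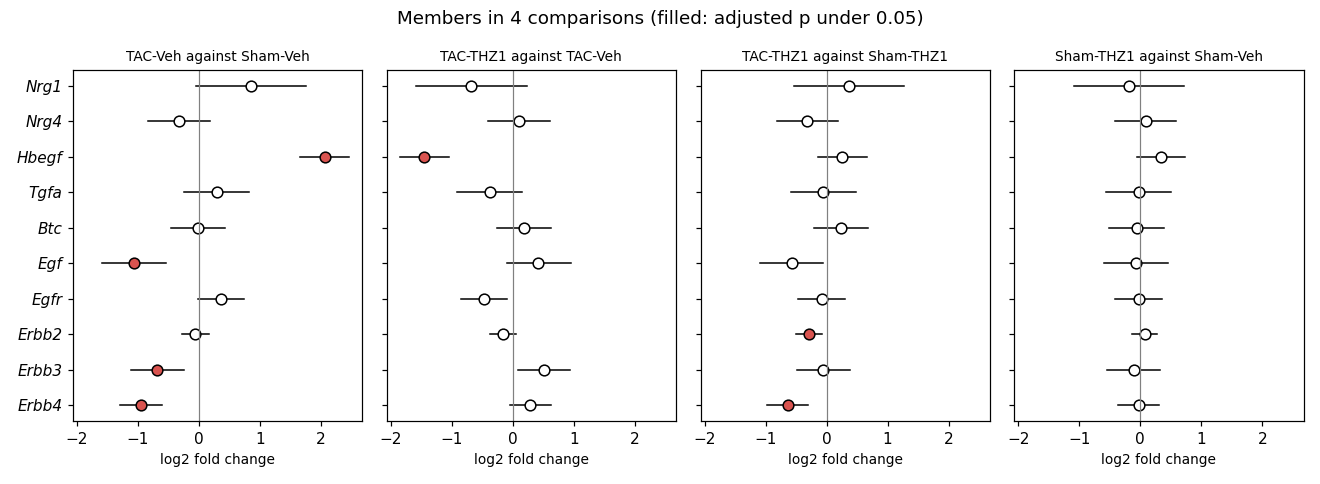
Log2 fold changes of the 10 members with 95% intervals in 4 comparisons, with filled points for adjusted p under 0.05. Hbegf is at 2.06 with TAC and -1.45 with THZ1 in TAC, and all intervals of the sham comparison hold 0.

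Both sham groups were compared for the drug without pressure overload. None of the members was called by limma, DESeq2 or edgeR, none had an unadjusted p under 0.05 in limma, and 0.0675% of all genes were called. Hbegf had normalized counts of 423, 398, 437 and 414 in Sham-THZ1, all above the Sham-Veh libraries, a pattern that 11.3% of all genes showed in one direction or the other. Its log2 fold change was 0.34 (interval -0.06 to 0.74, limma adjusted p = 0.776). A fit of both sham groups alone, with a smaller spread, called it at the same fold change (adjusted p = 0.0356). That fit called 465 genes, 3.49% of all, where the fit of 4 groups called 9, and array weights called 513 genes but no member. For the other members the log2 fold changes ran from -0.19 for Nrg1 to 0.09 for Nrg4. The widest interval, for Nrg1, reached from -1.09 to 0.72, and the narrowest, for Erbb2, from -0.14 to 0.28.

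The drug difference in TAC was then tested against the drug difference in sham, as the interaction. Hbegf was the only member called of 10, against 10% of all genes. Its interaction was -1.80 on the log2 scale (SE 0.27, interval -2.36 to -1.23, limma adjusted p = 0.00223). For Erbb3 it was 0.62 (interval 0.01 to 1.24, adjusted p = 0.176), and for Erbb4 it was 0.31 (interval -0.16 to 0.79). Without TAC-THZ1 replicates 1 and 3 the interaction of Erbb4 was 0.63 and was called (adjusted p = 0.0489). That pair was left out after seeing the data and held the lowest Erbb4 counts of its group, which favours this call.

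TAC-THZ1 was also compared with Sham-THZ1, which gives the difference of pressure overload when both groups had the drug. Erbb4 and Erbb2 were called lower, 2 of 10 members against 24.2% of all genes. Egf was the only member whose groups did not overlap, against 33.4% of all genes. Erbb4 had normalized counts of 230.2, 209, 236 and 266 in Sham-THZ1, and only replicate 2 of TAC-THZ1 at 210.1 reached that range. It fell by 0.64 on the log2 scale (SE 0.16, limma adjusted p = 0.0101). The call was lost without TAC-THZ1 replicates 1 and 3 (fold change -0.32, adjusted p = 0.177), a pair chosen after seeing the data. Erbb2 had 247, 234, 215 and 252 in Sham-THZ1 and 180.2, 195, 179 and 224 in TAC-THZ1. Its fall of 0.29 was near the threshold (adjusted p = 0.0471). The call was lost on leaving out any 1 library of the sham vehicle group, Sham-THZ1 replicate 1, 2 or 4, or TAC-THZ1 replicate 1, 2 or 3, with adjusted p up to 0.122. Egf had 216, 202, 262 and 248 in Sham-THZ1, and its log2 fold change was -0.57 (adjusted p = 0.102). Hbegf, with a log2 fold change of 0.26 (interval -0.14 to 0.66), was not called.

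The family holds 5 more ligands. Ereg encodes epiregulin, a ligand of Egfr and Erbb4. It had 9 reads in all of Sham-Veh and 360 in TAC-Veh, where its normalized counts were 155, 110.1, 39.6 and 29.0. Replicates 1 and 2 of TAC-Veh were highest for Ereg and for Hbegf. The ratio of the group means was 38.1 with an exact 95% counting interval of 19.8 to 83.9, which covers counting error only. On the log2(normalized count + 1) scale Ereg rose by 4.47 (SE 0.51, limma adjusted p = 5.04e-06), and this understates the change of a gene with so few sham reads. Ereg passed the filter on low values through the TAC-Veh libraries, since no sham library and 1 TAC-THZ1 library reached 10 normalized counts. With no filter it was called too. In TAC-THZ1 the counts were 9.83, 5.09, 11.4 and 5.94, all below TAC-Veh, and Ereg fell by 2.97 on the same scale (SE 0.51, adjusted p = 0.000634). It was still called higher in TAC-THZ1 than in Sham-THZ1, by 1.45 (SE 0.51, limma adjusted p = 0.0462). This rests on 33 reads against 9, a ratio of means of 3.28 (counting interval 1.54 to 7.80).

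Nrg2, a neuregulin that binds Erbb3 and Erbb4, moved the other way. Its normalized counts were 54.1, 70.6, 55.7 and 62.0 in Sham-Veh, 23.5, 19.3, 21.8 and 37.5 in TAC-Veh, and 39.3, 68.7, 52.1 and 54.4 in TAC-THZ1. The TAC-Veh libraries lay below every library of both these groups. Nrg2 fell by 1.25 with TAC (SE 0.23, limma adjusted p = 0.000383) and was higher by 1.06 with THZ1 in TAC (SE 0.23, adjusted p = 0.0031). Areg (amphiregulin) and Epgn (epigen) did not pass the filter, with normalized counts of 0 to 4.6 and 0.852 to 8.04 per library. Nrg3 had 0 reads in all 16 libraries, which allows up to 3 reads per library.

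The proteases that release the ligands, with their partners, formed a list of 13 genes, all tested. With TAC 6 rose, beside 21.4% of all genes, and the median log2 fold change of the list was 0.48, beside 0 for all genes. Adam12, a metalloprotease known to shed Hbegf, rose by 1.76, and Cd9, a tetraspanin that binds the Hbegf precursor, by 1.13. Adam9 rose by 0.64, Adam15 by 0.60 and Rhbdf1, which guides ADAM17 to the cell surface, by 0.59. Adam15 changed by 0.39 without TAC-Veh replicate 1 and was still called. The sixth was Timp3, an inhibitor of these proteases, at 0.48 (adjusted p = 0.034). Its call was lost without Sham-Veh replicate 1, 3 or 4 or TAC-Veh replicate 1 or 2 (adjusted p up to 0.0821), with a log2 fold change of 0.24 without TAC-Veh replicate 1. It was also lost in a fit of the compared groups alone (adjusted p = 0.115) and with array weights (0.0616). Adam17 itself, the main sheddase of the family, was not called. With THZ1 in TAC 6 fell, beside 14.2% of all genes, with a list median of -0.34. Adam12 fell by 1.49, Cd9 by 0.69, Adam9 by 0.64 and Rhbdf1 by 0.46. Timp3 fell by 0.69, or by 0.44 without TAC-Veh replicate 1. It was not called without TAC-THZ1 replicates 1 and 3 (adjusted p = 0.0595) or in a fit of the compared groups alone (0.0747). In the interaction 4 were called, all lower, beside 10% of all genes called in either direction.

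These same comparisons held changes of cell type markers, to be read beside the 21.4% of all genes that rose and 23.6% that fell with TAC, and the 15.1% and 14.2% with THZ1 in TAC. Of 10 fibroblast markers 7 rose with TAC and 7 fell with THZ1 in TAC, and their summed normalized count was 30187 to 33609 in Sham-Veh, 58596 to 103037 in TAC-Veh and 31593 to 44716 in TAC-THZ1. The fibroblast markers not called with TAC were Pdgfra (log2 fold change 0.25), Tcf21 (0.38) and Ddr2 (0.12). Of 11 macrophage markers tested 6 rose with TAC (median log2 fold change 0.66). Of 11 cardiomyocyte markers tested 5 fell with TAC and 6 rose with THZ1 in TAC, with sums of 1498010 to 1610280 in Sham-Veh and 831050 to 1156540 in TAC-Veh. Of that list Tnnc1 was listed at 0. Of 5 atrial markers Myl7, Sln and Bmp10 had means under 10 normalized counts in all groups. Of the others Stard10 fell by 1.21 with TAC and rose by 0.99 with THZ1 in TAC, and Myl4 was at 0.43 and -0.55 and was not called. The atrial sum was 404 to 448 in Sham-Veh, 168 to 281 in TAC-Veh and 276 to 430 in TAC-THZ1. Of 12 endothelial markers, the cells known for Nrg1, 2 rose and 2 fell with TAC, and 1 rose and 5 fell with THZ1. With THZ1 in TAC, 3 of 5 tested neutrophil markers and 2 of 5 mast cell markers rose. Of 10 pericyte and smooth muscle markers 1 rose and 5 fell with TAC, and 3 rose and 2 fell with THZ1. With TAC 2 of 4 mesothelial and epicardial markers rose. The median log2 fold changes of 6 erythroid and 2 adipocyte markers were 0.57 and -1.15 with TAC and 0.40 and 1.53 with THZ1, with no gene of either called by limma. The part of these cells in the ligand and receptor values was not tested.

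Genes that restrain ErbB receptors were a list of 11, of which 3 were called with TAC, beside 45% of all genes, and 2 with THZ1 in TAC, beside 29.4%. Socs4 fell by 0.28, Lrig1 fell by 0.20 and Rnf41, a ubiquitin ligase that marks Erbb3 for breakdown, rose by 0.25. The calls of Lrig1 and Rnf41 were lost without Sham-Veh replicate 4 (adjusted p = 0.0595 and 0.0553), and that of Lrig1 also without Sham-Veh replicate 3 (adjusted p = 0.0554). Both were also lost with array weights (0.0656 and 0.0698). With THZ1 in TAC, Cbl, a ubiquitin ligase of Egfr, fell by 1.01 and Stub1 rose by 0.28. The difference of Cbl was not particular to TAC. With THZ1 in sham its log2 fold change was -1.16 (interval -1.79 to -0.52), not called (limma adjusted p = 0.397). Its interaction was 0.14 (interval -0.75 to 1.04). The call of Cbl was lost without TAC-Veh replicate 2 (adjusted p = 0.0685), TAC-THZ1 replicate 2 (0.0619) or TAC-THZ1 replicates 1 and 3 (0.0679). With array weights it was lost too (0.1575), and that of Stub1 was lost in a fit of the compared groups alone (0.0748).

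Of 34 adaptors and kinases downstream of the receptors, 32 were tested. With TAC 7 rose and 11 fell (median -0.03), 18 in all, beside 45% of all genes. The docking protein Gab2 rose by 1.05 while its relative Gab1 fell by 0.86, and the transcription factors Stat5a and Stat5b fell by 0.92 and 0.56. Pik3r1, a regulatory subunit of PI3-kinase, fell by 0.78. With THZ1 in TAC 6 rose and 7 fell, beside 29.4% of all genes called, with Gab2 lower by 0.97 and Nras by 0.41, and Pik3r2 and Akt2 higher by 0.37 and 0.36.

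Of 22 genes known to be induced by ERK signalling, 21 were tested. With TAC 10 rose and 1, Spred2, fell, beside 21.4% and 23.6% of all genes, with a list median of 0.50. Egr2 rose by 2.82 and Etv4 by 2.77, both transcription factors, and the ERK phosphatase gene Dusp4 by 1.14. Myc rose by 1.04 and Junb by 0.73, although Junb was at 0.48 and not called without TAC-Veh replicate 2 (adjusted p = 0.0642). With THZ1 in TAC 7 fell and 1, Spry2, rose, beside 14.2% and 15.1% of all genes, with a list median of -0.36. Egr2 fell by 2.57 and Etv4 by 1.85. Calls for Myc (-0.74), Fosl2 (-0.60) and Spry1 (-0.46) were less firm, since those of Myc and Fosl2 were lost without TAC-Veh replicate 2 (adjusted p = 0.0999 and 0.0743) or TAC-THZ1 replicate 2 (0.105 and 0.0649). That of Myc was also lost without TAC-Veh replicate 1 (0.0846). A fit of the compared groups alone and array weights called neither Myc (0.124 and 0.122) nor Fosl2 (0.0843 and 0.0702) nor Spry1 (0.133 and 0.158). Spry1 lost its call without TAC-Veh replicate 1 (-0.26, adjusted p = 0.056) or 2 (0.0521), without TAC-THZ1 replicate 1 (0.0665), 2 (0.0611) or 3 (0.0722), and without both TAC-THZ1 replicates 1 and 3 (0.174). Many other pathways induce these genes too.

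For each called member, the genes with the most similar pattern were found by the root mean square (RMS) difference of centred log2 values over all 16 libraries, among 11387 genes with a mean normalized count of at least 50. Hbegf was closest to Igfbp7 (0.224), Fhl1 (0.235) and Nbl1 (0.239), against a median of 0.850 over all genes compared. Egf was closest to Camk2b (0.189), Slc26a6 (0.201) and Tmem150c (0.208), against 0.575. Erbb3 was closest to Slc22a23 (0.142), Aasdh (0.142) and 9030418K01Rik (0.157), against 0.421. Erbb4 was closest to Npc1 (0.154), Synj2 (0.166) and Corin (0.167), the last of them a cardiomyocyte protease that processes natriuretic peptides, against 0.485. These patterns come from the same libraries as the fold changes.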

How the data were processed

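The authors aligned stranded mRNA reads to mm9 with TopHat2 2.1.1, counted them per gene with HTSeq (reverse-stranded) and divided the counts by DESeq2 size factors (tools and build as in the submitters' processing notes). The deposited signal in each gene and library is thus a size-factor normalized count. Within 0.01, 100% of values were whole multiples of 1 read. These reads are reads in protein-coding genes. Replicates differed by more than sampling noise (chi-square per degree of freedom 2.97 to 93.5), so no library was counted as a duplicate. The labels give no batch.

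Log2(normalized count + 1) was fitted with limma 3.58.1 (R 4.3.3) as 4 group means, without covariates, using the trended eBayes. P-values were adjusted by Benjamini and Hochberg over 13331 genes per contrast and called under 0.05. Correlations of the deviations of same-numbered libraries were -0.43 to 0.12, and 1 of 16 was over 0.1, so numbers did not pair libraries. Scripts were tested on simulated data. Alternatives were other pseudocounts, filters and scalings, array weights, robust eBayes, a fit of the compared groups alone, a replicate block, a fold threshold, leaving out each library, DESeq2 1.42.0, edgeR 4.0.16 and another exon length. Leaving out TAC-THZ1 replicates 1 and 3 together was chosen after seeing the data.

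The members and all lists were chosen with earlier results of these data known. Named were the 10 members, the 5 other ligands, up to 5 called genes with the largest fold change of each longer list with TAC and with THZ1 in TAC, and the 3 genes most alike each called member. Any further gene was picked with its values in view, and some genes are not reported here by name. Gene positions and exon lengths came from GENCODE on NCBIM37 and promoters from RefSeq. Figures used Python 3.11.15 and Matplotlib 3.10.9.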

Additional observations from a re-analysis of the deposited data

Results flagged for a closer look

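Among 48 sets of 4 libraries (the 10 members and the tested other ligands in each group), 4 held a library set apart from the other 3, and chance alone gives about 1 in 20. In TAC-THZ1, Nrg1 was 39.9 normalized counts in replicate 3 (10.2 to 14.2 in the others), Btc 73.2 in replicate 3 (48.4 to 49.5) and Hbegf 723 in replicate 4 (416 to 466). In Sham-Veh, Egf was 328 in replicate 1 (211 to 229).

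For 11 genes the drug difference in TAC and in sham differed by the interaction term of limma, given here on the log2 scale. Only the members and the genes named from each list were looked at, and the latter were picked by their calls with TAC or THZ1. Those comparisons share libraries with the interaction, which favours its call, and 10% of all genes were called in it. The 11 genes come from a picked set and cannot be set against that share. Among ligands, Hbegf had an interaction of -1.80 (adjusted p = 0.00223), with a drug difference of -1.45 in TAC and 0.34 in sham. Ereg had -3.01 (adjusted p = 0.017; -2.97 in TAC and 0.05 in sham), and Nrg2 had 1.44 (adjusted p = 0.0135), from 1.06 in TAC and -0.38 in sham. Ereg passed the filter on low values through TAC-Veh, where it was high, so its call is not independent of that filter. Its sham difference rests on 1 to 3 reads per library in Sham-Veh and 1 to 4 in Sham-THZ1. Among the shedding genes, Adam9 had -0.69 (adjusted p = 0.0123), Adam15 -0.74 (adjusted p = 0.0387), Rhbdf1 -0.56 (adjusted p = 0.0118) and Cd9 -0.76 (adjusted p = 0.0188), with drug differences in sham of 0.05, 0.33, 0.10 and 0.08. In TAC these differences were -0.64, -0.41, -0.46 and -0.69, and that of Adam15 was not called (limma adjusted p = 0.0511). Downstream, Gab2 had -1.10 (adjusted p = 0.00176). Of the ERK-induced genes, Egr2 had -3.04 (adjusted p = 0.0126), Fosl2 -1.06 (adjusted p = 0.0173) and Etv4 -2.03 (adjusted p = 0.00936), with drug differences in sham of 0.47, 0.46 and 0.18.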

How the results depend on the processing

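The 4 members called with TAC (TAC-Veh against Sham-Veh) were 4 to 6 on leaving out single libraries and 2 with a threshold of 1 on the absolute log2 fold change (Hbegf and Egf). The 1 member called with THZ1 in TAC (TAC-THZ1 against TAC-Veh) was 1 to 3 on leaving out single libraries, 2 with DESeq2 and 4 without TAC-THZ1 replicates 1 and 3. With the replicate number as a block it was 3 (Egfr and Erbb3 besides Hbegf), although the numbers do not pair libraries. The 0 called in Sham-THZ1 against Sham-Veh became 1 in a fit of those groups alone. The 2 called in TAC-THZ1 against Sham-THZ1 were 1 to 3 on leaving out single libraries, 1 without a filter, with upper quartile or TMM scaling or with edgeR, and 0 with that threshold or without TAC-THZ1 replicates 1 and 3. The interaction gave 2 instead of 1 without those libraries. The cause was not tested. Over all genes, the 9 called in Sham-THZ1 against Sham-Veh were 465 in a fit of those groups alone, 513 with array weights, 33 with DESeq2 and 3 to 15 on leaving out libraries. The 3918 called with THZ1 in TAC were 1399 and 2412 with the fit of those groups alone and array weights. The 3220 in TAC-THZ1 against Sham-THZ1 were 5011 with array weights, 1011 without TAC-THZ1 replicates 1 and 3 and as few as 1978 on leaving out libraries, and the 1336 of the interaction were 690 to 2479. The order of levels kept 8 of 10 places with the longest transcript as length.

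Hbegf was called in every alternative tried for TAC (2.00 to 2.11, or 1.92 to 2.24 on leaving out single libraries) and for THZ1 in TAC (-1.47 to -1.26, or -1.64 to -1.31), and so were Egf, Erbb3 and Erbb4 with TAC, except that Erbb3 and Erbb4 missed the fold threshold. Of 2661 values for single genes under alternatives, 2549 kept direction and side of the threshold, 53 lost a call, 19 gained one and 40 changed sign. The sign changes were in members that were not called in that comparison. With TAC, Btc was 0.13 with array weights, 0.06 with DESeq2, 0.05 with edgeR and -0.14 to 0.23 on leaving out libraries, and Erbb2 was -0.12 to 0. With THZ1 in TAC, Btc was 0 with array weights and -0.06 to 0.31, and Nrg4 -0.09 to 0.30, on leaving out libraries. In Sham-THZ1 against Sham-Veh, leaving out libraries gave ranges of -0.43 to 0.12 for Nrg1, 0 to 0.20 for Nrg4, -0.17 to 0.14 for Tgfa, -0.11 to 0.01 for Btc, -0.14 to 0.07 for Egf, -0.10 to 0.10 for Egfr and -0.11 to 0.07 for Erbb4. In TAC-THZ1 against Sham-THZ1 they were -0.05 to 0.61 for Nrg1, -0.18 to 0.06 for Tgfa, -0.24 to 0.04 for Egfr and -0.16 to 0.06 for Erbb3. In the latter comparison Erbb3 was 0 with array weights and 0.20 without TAC-THZ1 replicates 1 and 3, and Nrg1 was -0.16 without them. The interaction of Nrg4 was -0.03 with DESeq2, -0.02 with edgeR and -0.17 to 0.22 on leaving out libraries. Depth limits Nrg1 and Tgfa most, with 6 to 53 and 9 to 26 reads per library.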
